A study of Mus musculus with 12 samples.

Results

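The genes described here are 56 genes for actin nucleation, severing and adhesion linkage, the proteins that start, cut, cap, bundle and anchor actin filaments. A gene was counted as measured where a probe set of the array carried its symbol and no other, and of several such probe sets the one brightest on average over the 12 arrays was taken. By this rule 54 of the 56 were measured, among 22180 genes in all, and Cyfip1 and Fmnl3 had no such probe set. The 54 fall into 11 groups by role, from the Arp2/3 complex to myosins and kinases. The members were listed by function, with earlier results of these data known.

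Gene expression was measured on Affymetrix arrays in dendritic cells, which take up and present antigens, grown for 7 days from bone marrow with the growth factor GM-CSF at 20 ng/ml. The marrow came from C57BL/6 mice aged 8 weeks and labelled male. Arc/Arg3.1-/- (knockout) cells and wildtype cells were each given LPS, a bacterial cell wall component sensed by Toll-like receptor 4, at 100 ng/ml for 30 min, or medium alone (untreated). All cells were then washed and kept for 1 h in medium, so that the 4 groups were LPS-treated knockout, untreated knockout, LPS-treated wildtype and untreated wildtype cells, with 3 arrays each. What was harvested was the semi-adherent fraction of the culture, with no sort, so other marrow-derived cells can be present. The sources used here do not say how the Arc gene was disrupted, nor whether the cultures of a group came from separate animals. The series title relates Arc to dendritic cell migration and actin dynamics, and the comparisons ask whether the RNA of the actin machinery differs after LPS and between the genotypes.

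Actin monomers assemble into filaments that push the membrane forward in a moving cell. The Arp2/3 complex, switched on by WASP and WAVE proteins, starts branched filaments, while formins build unbranched ones. Cofilin severs old filaments, coronins and cortactins act at branches, and bundling proteins such as fascin stiffen the dendrites for which the cells are named. Talin, vinculin and the ERM proteins tie filaments to adhesions or to the membrane, and class I myosins tie them to membranes as motors. In dendritic cells this machinery serves antigen uptake, the dendrites and migration to lymph nodes.

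All values are log2 signals per probe set as deposited, and differences are log2 differences, LPS-treated minus untreated or knockout minus wildtype. Changes were called with limma at a Benjamini-Hochberg adjusted p below 0.05 over all 22180 genes. The 3 untreated wildtype arrays were closer to each other than any other arrays of 1 group. The SD of the difference between 2 arrays, over 6440 genes with a mean signal above 8, was 0.105 to 0.108 in the 3 pairs of untreated wildtype arrays and 0.193 to 0.438 in the 9 pairs of the other groups. Over the members alone it was 0.0862 to 0.134 in untreated wildtype cells and 0.132 to 0.427 in the other groups. Their mean was therefore counted as 1 sample, which left 10 samples, and results with 12 arrays stand beside them where a call differs. In bulk RNA, fewer cells of a type and less RNA per cell cannot be told apart.

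Some arrays stood apart. The median signal of 83 small RNA genes was low, 9.57 to 9.84, on 4 LPS-treated arrays (replicates 2 and 3 in either genotype), and the other 8 arrays had 10.41 to 11.03. On 3 arrays (LPS-treated knockout 2, untreated knockout 2 and LPS-treated wildtype 1) Xist, the X-inactivation RNA, was at 5.63 to 5.76 and Y-linked genes reached 8.14 to 9.89. On the other 9 arrays, which are also labelled male, Xist was at 11.22 to 11.92 and Y-linked genes did not exceed 4.86. Calls on members that changed without the arrays of either kind, or with a term for them in the fit, are given both ways. The 12 measured markers of conventional dendritic cells averaged 10.44 to 10.58 on every array, with Xcr1 the lowest of them at 6.42. Macrophage markers (11 genes) averaged 9.35 to 10.32. The 7 stromal markers averaged 5.73 to 6.10, close to the median of 5.89 to 6.10 of the probe sets with no gene. Neutrophil markers (13 genes) averaged 7.85 to 8.19 in LPS-treated and 8.61 to 8.97 in untreated cells of the knockout, and 7.55 to 8.53 in LPS-treated and 8.92 to 8.99 in untreated wildtype cells. Inflammatory monocyte markers (6 genes) averaged 8.38 to 9.05 in LPS-treated and 9.75 to 10.11 in untreated cells of the knockout, and 8.64 to 9.20 in LPS-treated and 10.01 to 10.13 in untreated wildtype cells. The part of these markers in the LPS differences below was not tested.

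Arc itself separated the genotypes on every array. Its signal was 8.03, 7.68 and 8.02 in LPS-treated knockout cells and 9.39, 9.21 and 9.62 in LPS-treated wildtype cells. In untreated cells it was 7.81, 7.88 and 8.05 in the knockout and 9.47, 9.24 and 9.46 in wildtype. The difference over both treatments was -1.49 (SE 0.12, limma adjusted p = 0.00150), and without the 4 arrays of low small RNA signal it was -1.42 (limma adjusted p = 0.195). After LPS it was -1.50 (limma adjusted p = 0.00591), and without the 3 arrays with Y-linked signal -1.39 (limma adjusted p = 0.0943). The call after LPS was also lost with the compared groups alone (limma adjusted p = 0.0547) and without LPS-treated wildtype replicate 1 (limma adjusted p = 0.0565). Without the 4 arrays of low small RNA signal, which leaves 1 LPS-treated array per genotype, the difference after LPS was -1.36 and the call was lost too. In untreated cells it was -1.48 and did not pass (limma adjusted p = 0.177, and 0.000800 with 12 arrays), nor did it in any of the 12 fits without 1 array (0.0668 to 0.433). The sources used here do not say which part of the transcript the probe set covers.

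Nearly all members gave a signal in these cells. On every array, 53 of the 54 exceeded the median of the probe sets with no gene. The exception was Wasf1, the WAVE isoform best known from brain, which averaged 5.60 and exceeded that median on 1 array. A higher bar, the 90th percentile of the probe sets with no gene (8.19 to 8.41), was never passed by Limk2, and was passed by Abi3 on 1 array, Cttn on 2 and Arpc5l on 3. Signals this near the background tend to understate changes, a limit for Limk2 and Arpc5l below.

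After LPS, vinculin and myosin 1E RNA rose, while the other 52 members did not pass the test over both genotypes. Over both genotypes 2 of 54 members rose (Vcl and Myo1e) and 0 fell, where 3.94% of genes in all rose and 2.28% fell. In knockout cells 1 rose (Vcl) and 2 fell (Arpc5l and Limk2), beside 2.98% and 2.93% of genes in all. In wildtype cells limma called 0 of 54 members in either direction, beside 1.34% and 0.234% of genes in all. The shares of members called are near the background of all genes. An unadjusted limma p below 0.05 was reached by 12 members in knockout cells, 2 in wildtype cells and 11 over both genotypes. The share of all genes with such a p was not counted, here or in the comparisons below. With 12 arrays, 4 members rose (Vcl, Myo1e, Ssh2 and Pak2) and 6 fell (Arpc5l, Abi3, Limk2, Coro1a, Coro1b and Flna) over both genotypes, beside 7.1% and 7.35% of genes in all. In that fit 2 rose (Vcl and Myo1e) and 0 fell in wildtype cells, beside 5.39% and 3.26%, and 1 rose and 2 fell in knockout cells, beside 3.93% and 5.18%. The median LPS difference of the 54 members was -0.0022 over both genotypes, -0.027 in knockout and 0.075 in wildtype cells, beside -0.012, -0.0037 and -0.0053 over all genes.

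**Figure D1:**
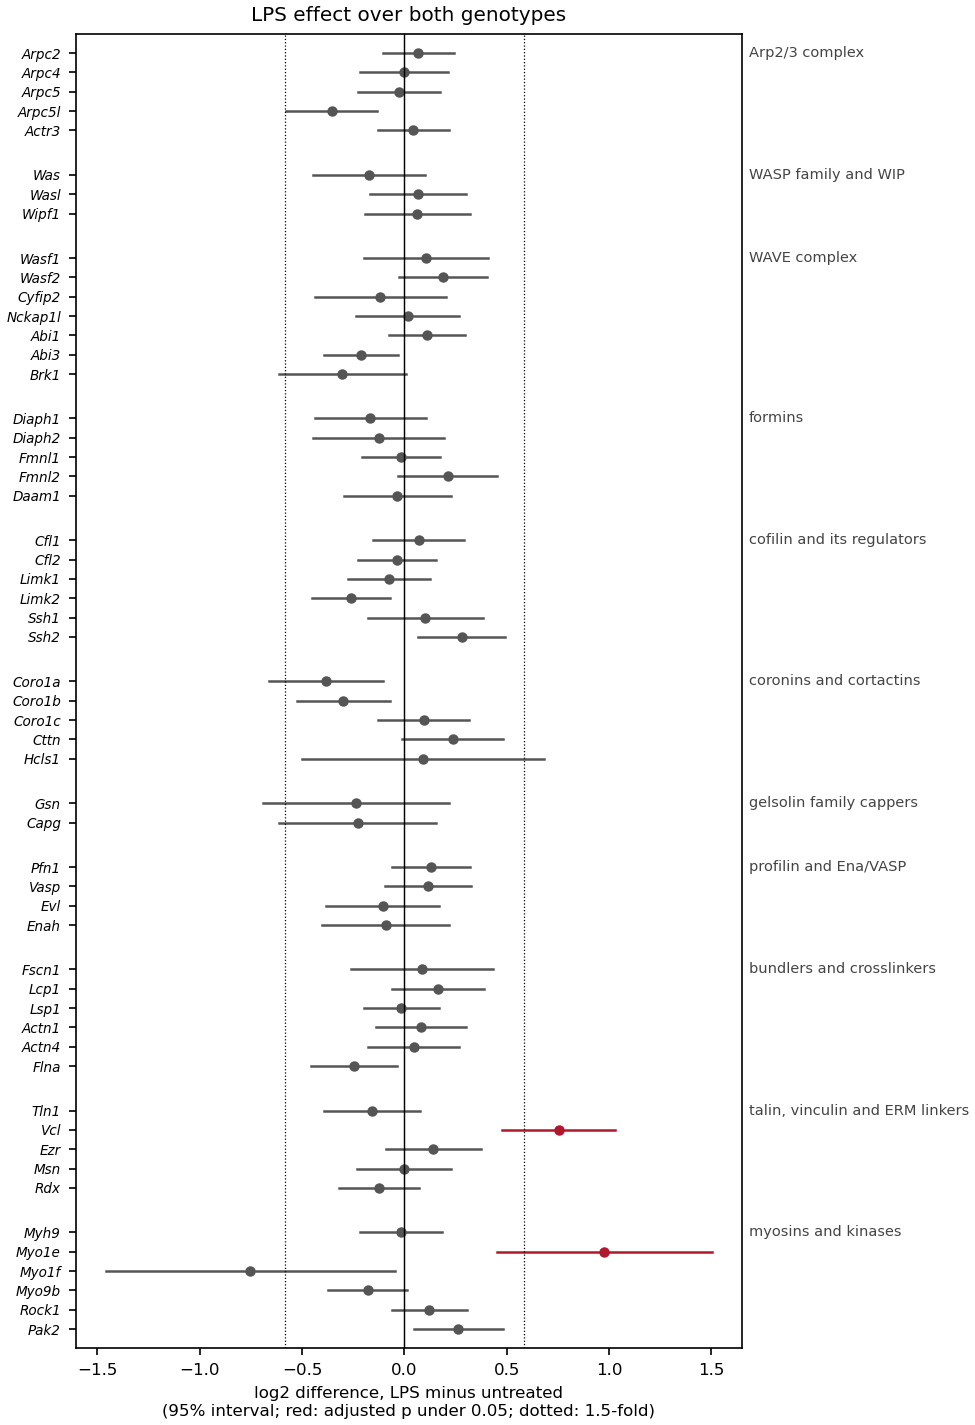
LPS difference of each of the 54 members over both genotypes (log2, LPS-treated minus untreated; point, estimate; bar, 95% interval), grouped by role. Vcl at 0.75 and Myo1e at 0.98 stand to the right of the other members, and Myo1f at -0.75 lies to the left with a wide interval.

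Among the adhesion linkers, the call was on vinculin (Vcl), which joins talin and actin at integrin adhesions and at cell-cell junctions. In the knockout its signal was 10.20, 10.06 and 10.58 in LPS-treated and 9.50, 9.51 and 9.61 in untreated cells. Wildtype cells had 10.01, 10.31 and 10.32 in LPS-treated and 9.47, 9.37 and 9.49 in untreated cells. Every LPS-treated array was above every untreated array in both genotypes. The difference was 0.74 (SE 0.14, limma adjusted p = 0.0135) in knockout cells, a 1.67-fold rise, and 0.77 (SE 0.20, limma adjusted p = 0.122, and 0.00266 with 12 arrays) in wildtype cells. Over both it was 0.75 (SE 0.13, 95% interval 0.48 to 1.03, limma adjusted p = 0.00428). Without the 4 arrays of low small RNA signal it was 0.61 (limma adjusted p = 0.0461) over both genotypes and 0.66 (limma adjusted p = 0.0691) in knockout cells. With these arrays kept and a term for them, it was 0.61 (limma adjusted p = 0.0501) over both and 0.60 (limma adjusted p = 0.0641) in the knockout, so that neither call held. The knockout call was also lost without untreated replicate 1 or 2 or LPS-treated replicate 3, at limma adjusted p of 0.0540, 0.0513 and 0.0530.

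The other 4 linkers did not pass the test in any comparison. The LPS difference over both genotypes was -0.16 for Tln1, the talin that activates integrins and recruits vinculin. For the ERM proteins, which tie actin to the plasma membrane, it was 0.14 for Ezr, -0.0037 for Msn and -0.12 for Rdx. A second probe set of Msn, not used here, gave 0.65 in knockout and 0.55 in wildtype cells. Its mean signal of 4.55 was below the median of the probe sets with no gene. Talin 1 and vinculin, partners in the same adhesion, lay on opposite sides of 0, and the 95% interval of Tln1 included 0.

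Among the myosins and kinases, myosin 1E (Myo1e), a membrane-binding class I motor with roles in endocytosis and in the motility of phagocytes, had the largest LPS difference of the 54 members. Its signal was 9.28, 10.31 and 9.74 in LPS-treated and 8.61, 9.29 and 8.88 in untreated knockout cells. Wildtype signals were 9.20, 9.94 and 9.78 in LPS-treated and 8.69, 8.37 and 8.55 in untreated cells. The wildtype arrays did not overlap, and in the knockout the lowest LPS-treated array, replicate 1, lay just under the highest untreated one, replicate 2. The difference over both genotypes was 0.98 (SE 0.24, 95% interval 0.45 to 1.50, limma adjusted p = 0.0347), a 1.97-fold rise. In knockout cells it was 0.85 (SE 0.27, limma adjusted p = 0.105, and 0.00202 with the replicate number as a block), and in wildtype cells 1.10 (SE 0.39, limma adjusted p = 0.293, and 0.0175 with 12 arrays).

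The call on Myo1e depended on the arrays that stand apart and on the processing. Without the 4 arrays of low small RNA signal, which leaves 1 LPS-treated array per genotype, its difference over both genotypes was 0.51 (limma adjusted p = 0.293), and with a term for them it was also 0.51 (limma adjusted p = 0.263). Without the 3 arrays with Y-linked signal it was 1.05 over both (limma adjusted p = 0.00551) and 1.32 in wildtype cells, where it then passed (limma adjusted p = 0.0307). With a term for those 3 arrays it was 0.94 over both and did not pass (limma adjusted p = 0.0523). The call was lost when any of untreated knockout 1 or 3, LPS-treated knockout 3 or LPS-treated wildtype 2 or 3 was left out, at limma adjusted p of 0.0714 to 0.0816. With every array kept, it was also lost with arrays shifted to 1 median (limma adjusted p = 0.0551) and with all probe sets (limma adjusted p = 0.0647).

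Myosin 1F (Myo1f), the class I myosin of leukocytes known from neutrophil migration, had the largest difference in the other direction, and whether it passed the test turned on single arrays and on the fit. Its signal was 7.54, 9.33 and 8.55 in LPS-treated and 9.10, 9.59 and 9.54 in untreated knockout cells. In wildtype it was 8.50, 9.25 and 8.71 in LPS-treated and 9.25, 9.42 and 9.49 in untreated cells. LPS-treated arrays spread widely, with replicate 1 the lowest and replicate 2 the highest in both genotypes. The difference was -0.94 in knockout cells (SE 0.37, limma adjusted p = 0.184, and 0.0239 with the replicate block) and -0.57 in wildtype cells (SE 0.52, limma adjusted p = 0.892), and over both it was -0.75 (SE 0.32, limma adjusted p = 0.249). Without the 4 arrays of low small RNA signal, which leaves replicate 1 as the LPS-treated array of each genotype, it passed at -1.87 in knockout cells (limma adjusted p = 0.0203) and -1.38 over both (limma adjusted p = 0.0145), where Vcl and Myo1f were then the 2 members called. With a term for these arrays it was -1.56 in the knockout (limma adjusted p = 0.0210) and -1.38 over both (limma adjusted p = 0.0246). Without LPS-treated knockout replicate 2 alone it was -1.37 in the knockout and -0.97 over both (limma adjusted p = 0.0268 and 0.0440). The mean of 11 macrophage markers moved alongside it, at 9.35 to 10.17 in LPS-treated and 10.12 to 10.32 in untreated cells of the knockout, and at 9.84 to 9.96 in LPS-treated and 10.25 to 10.28 in untreated wildtype cells. The part of these markers in the Myo1f values was not tested.

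The other 4 genes of this role group did not pass the test. Over both genotypes the LPS difference was 0.26 (SE 0.10, limma adjusted p = 0.173, and 0.0249 with 12 arrays) for Pak2, a kinase activated by Rac and Cdc42. It was 0.12 for Rock1, a kinase that drives actomyosin contraction, -0.02 for Myh9, the heavy chain of non-muscle myosin IIA, and -0.18 for Myo9b, an unconventional myosin.

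**Figure D2:**
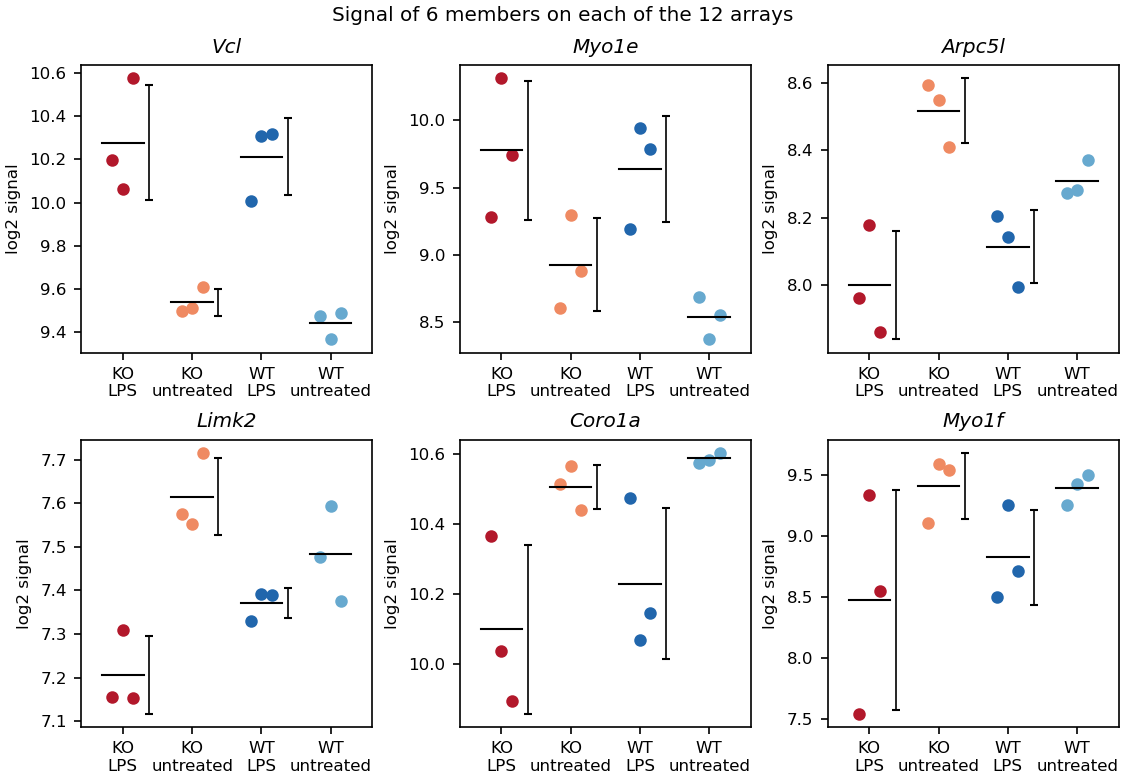
Log2 signal of Vcl, Myo1e, Arpc5l, Limk2, Coro1a and Myo1f, 1 point per array. LPS-treated and untreated knockout cells stand left of LPS-treated and untreated wildtype cells. The line is the mean and the bar the SD of 3 arrays, with no bar for untreated wildtype, counted as 1 sample. LPS-treated arrays lie above untreated ones for Vcl in both genotypes.

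The promoters of Vcl and Myo1e are shown because both hold a CArG box, the motif bound by serum response factor, a transcription factor known for controlling actin genes. The sequences are from RefSeq on build GRCm38.p6, 250 bases before to 50 after the start site, with the box in capitals. The Vcl window is chr14:20929148-20929447 and the Myo1e window chr9:70207100-70207399. The window of Arpc4, chr6:113377863-113378162, is added as the other member promoter with a box. All 3 are on the plus strand.
Vcl: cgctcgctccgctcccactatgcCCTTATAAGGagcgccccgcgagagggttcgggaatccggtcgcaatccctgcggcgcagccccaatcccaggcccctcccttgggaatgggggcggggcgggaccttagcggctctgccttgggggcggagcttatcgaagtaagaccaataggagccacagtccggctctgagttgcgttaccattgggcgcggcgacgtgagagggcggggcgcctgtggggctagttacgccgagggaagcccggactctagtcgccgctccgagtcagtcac
Myo1e: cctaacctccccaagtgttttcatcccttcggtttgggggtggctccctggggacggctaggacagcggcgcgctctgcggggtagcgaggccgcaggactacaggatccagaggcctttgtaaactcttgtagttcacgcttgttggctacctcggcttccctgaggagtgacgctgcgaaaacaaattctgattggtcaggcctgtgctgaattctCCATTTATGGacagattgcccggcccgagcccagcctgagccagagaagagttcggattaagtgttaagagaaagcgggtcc
Arpc4: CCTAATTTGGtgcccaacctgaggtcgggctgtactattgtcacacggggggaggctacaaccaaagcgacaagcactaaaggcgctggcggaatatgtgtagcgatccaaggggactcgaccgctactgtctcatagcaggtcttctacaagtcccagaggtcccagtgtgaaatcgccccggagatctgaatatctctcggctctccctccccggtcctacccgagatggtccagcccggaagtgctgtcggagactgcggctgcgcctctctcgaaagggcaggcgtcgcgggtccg

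Counted from the start site, the box begins at -227 in Vcl, at -32 in Myo1e and at -250 in Arpc4. Searched on both strands, it occurred in 535 of 32851 promoters in the RefSeq table (1.63%) and in 3 of the 59 promoters of the 45 members found there. Arpc4, with a box, had an LPS difference of -0.00066 over both genotypes, so the motif was present with and without a rise. The AP-1 motif TGANTCA occurred in 7.81% of all promoters and in 5 of these 59, among them 1 promoter of Limk2, and in neither Vcl nor Myo1e. A loose NF-kB motif, GGG and CC parted by 5 bases, occurred in 50.8% of all promoters and in 47 of the 59, among them those of Vcl, Myo1e and all 3 promoters of Limk2. The motifs were looked at after the values were seen, and a match is a description of the letters, not of binding.

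In the Arp2/3 complex the call was on Arpc5l, an isoform of the smallest subunit. Its signal was 7.96, 8.18 and 7.86 in LPS-treated and 8.59, 8.55 and 8.41 in untreated knockout cells. Wildtype cells had 8.21, 8.14 and 8.00 in LPS-treated and 8.27, 8.28 and 8.37 in untreated cells. LPS-treated arrays were below untreated ones in both genotypes, by a wider gap in the knockout. The difference was -0.52 in knockout cells (SE 0.12, limma adjusted p = 0.0265, and 0.0122 with the replicate block) and -0.19 in wildtype cells (SE 0.16, limma adjusted p = 0.867). Whether the 2 genotypes differ in this was tested by the interaction, which was -0.32 with a limma adjusted p of 0.948. The knockout call was lost without any 1 knockout array other than LPS-treated replicate 2 (limma adjusted p of 0.0552 to 0.120), without the arrays of low small RNA signal (limma adjusted p = 0.102) and with a term for them (limma adjusted p = 0.0802). With the compared groups alone the knockout call was lost too (limma adjusted p = 0.0562). Over both genotypes the difference was -0.36 (limma adjusted p = 0.0680, and 0.00580 with 12 arrays). With a term for the arrays with Y-linked signal it was -0.38 and passed (limma adjusted p = 0.0415).

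The remaining subunits did not pass the test. The LPS difference over both genotypes was 0.07 for Arpc2, which with Arpc4 (-0.00066) forms the core of the complex, 0.04 for Actr3, the actin-related protein Arp3, and -0.03 for Arpc5, the other isoform of the smallest subunit. A second probe set of Arpc5, not used here, gave -0.16 in knockout and -0.38 in wildtype cells, against -0.09 and 0.03 for the probe set used.

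Among the activators of the complex no member passed the test after LPS. Was, the WASP protein lost in Wiskott-Aldrich syndrome, had a difference of -0.17 over both genotypes (SE 0.12, limma adjusted p = 0.572). Wasl, its widely expressed relative N-WASP, had 0.07, and Wipf1, the WIP protein that stabilises WASP, 0.06. In the WAVE complex, which acts downstream of Rac at the leading edge, the smallest p belonged to Abi3, a subunit of the Abi family. Abi3 signals were 7.94, 7.97 and 7.87 in LPS-treated and 8.19, 8.18 and 8.24 in untreated knockout cells. In wildtype they were 8.15, 7.99 and 8.04 in LPS-treated and 8.19, 8.25 and 8.20 in untreated cells. The arrays did not overlap in either genotype, and the difference over both was -0.21 (SE 0.08, limma adjusted p = 0.197, and 0.0298 with 12 arrays). Brk1, the smallest WAVE subunit, had -0.30 (limma adjusted p = 0.304) and Wasf2, the main WAVE isoform of leukocytes, 0.19. Nckap1l, the blood cell subunit Hem1, had 0.02, the adaptor subunit Abi1 0.11, Cyfip2, through which Rac binds, -0.12 and the dim Wasf1 0.11.

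Formins, which lengthen unbranched filaments, did not pass either. Fmnl2, a formin of the leading edge, had an LPS difference of 0.21 over both genotypes (SE 0.11, limma adjusted p = 0.368). Its signal was 10.28, 10.08 and 10.38 in LPS-treated and 10.21, 9.96 and 10.23 in untreated knockout cells. Wildtype signals were 10.25, 9.97 and 10.17 in LPS-treated and 9.84, 9.79 and 9.83 in untreated cells, so the LPS-treated arrays lay above the untreated ones in wildtype and overlapped them in the knockout. Diaph1, the formin mDia1, had -0.17 (in knockout cells it passed at -0.54, limma adjusted p = 0.0417, where low small RNA signal was a term of the fit), its relative Diaph2 -0.13, Daam1, a formin of Wnt signalling, -0.03 and Fmnl1, a formin of leukocytes, -0.02.

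Among cofilin and its regulators the call was on Limk2, a kinase that inactivates cofilin by phosphorylation. Its signal was 7.16, 7.31 and 7.15 in LPS-treated and 7.57, 7.55 and 7.72 in untreated knockout cells. In wildtype it was 7.33, 7.39 and 7.39 in LPS-treated and 7.48, 7.59 and 7.38 in untreated cells. The arrays were apart in the knockout and overlapped in wildtype. The difference was -0.41 in knockout cells (SE 0.10, limma adjusted p = 0.0373, and 0.0315 with the replicate block) and -0.11 in wildtype cells (SE 0.14, limma adjusted p = 0.950), and the interaction was -0.30 (limma adjusted p = 0.948). The knockout call was lost without any 1 knockout array other than LPS-treated replicate 2, or without LPS-treated wildtype replicate 2 or 3 (limma adjusted p of 0.0573 to 0.145). It was also lost without the arrays of low small RNA signal (-0.46, limma adjusted p = 0.143), with a term for them (-0.45, limma adjusted p = 0.0555) and without the arrays with Y-linked signal (-0.49, limma adjusted p = 0.0605). With the compared groups alone, all probe sets or arrays shifted to 1 median the knockout call was lost too (limma adjusted p of 0.0824, 0.0589 and 0.0552). Over both genotypes the difference was -0.26 (limma adjusted p = 0.121, and 0.0191 with 12 arrays).

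Ssh2, a phosphatase that activates cofilin and so opposes the LIM kinases, had higher signals after LPS in both genotypes. They were 9.40, 9.48 and 9.38 in LPS-treated and 9.18, 9.12 and 9.25 in untreated knockout cells. In wildtype they were 9.31, 9.22 and 9.55 in LPS-treated and 8.98, 9.14 and 8.98 in untreated cells. With Vcl it was 1 of 2 members whose LPS-treated arrays were above the untreated ones in both genotypes, where 5.6% of all genes were. Its difference over both was 0.28 (SE 0.10, limma adjusted p = 0.138, and 0.0203 with 12 arrays). The other phosphatase Ssh1 had 0.10, the other kinase Limk1 -0.08, and the cofilins themselves 0.07 (Cfl1) and -0.04 (Cfl2).

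Coronins 1A and 1B were lower on every LPS-treated array than on any untreated array of their genotype. Coro1a, the coronin of leukocytes, was at 10.36, 10.04 and 9.90 in LPS-treated and 10.51, 10.56 and 10.44 in untreated knockout cells. In wildtype it was at 10.47, 10.07 and 10.15 in LPS-treated and 10.57, 10.58 and 10.60 in untreated cells. In both LPS groups replicate 1 stayed nearest to the untreated arrays, and replicates 2 and 3 are the arrays of low small RNA signal. The difference over both genotypes was -0.38 (SE 0.13, limma adjusted p = 0.120, and 0.0142 with 12 arrays). Without the arrays of low small RNA signal it was -0.13. With the first LPS-treated knockout array left out it was -0.45 and passed (limma adjusted p = 0.0397).

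Coro1b, which removes Arp2/3 from branches, had a difference of -0.30 (SE 0.10, limma adjusted p = 0.143, and 0.0182 with 12 arrays), and Coro1c 0.09. Cttn, cortactin, and Hcls1, its relative in blood cells, both hold branches in place. The first had 0.24 and the second 0.09, with a wide spread of Hcls1 in LPS-treated knockout cells (9.41, 10.84 and 10.18).

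Among 54 members, 6 were below the untreated arrays after LPS in both genotypes (Arpc5l, Abi3, Coro1a, Coro1b, Flna and Myo9b), where 4.86% of all genes were. In knockout cells alone 2 members lay above and 11 below, where 10.3% and 14.8% of all genes did. In wildtype cells 17 lay above and 8 below, where 16.2% and 13.9% of all genes did.

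Of the cappers, Capg had an LPS difference of -0.23 (SE 0.17, limma adjusted p = 0.600) and gelsolin (Gsn), which severs filaments and caps their ends, -0.24 (SE 0.21, limma adjusted p = 0.663). Capg was at 7.85, 8.63 and 8.28 in LPS-treated and 8.48, 8.91 and 8.56 in untreated knockout cells. The first replicate was the lowest of both sets, as it was for Gsn at 9.17, 10.25 and 9.55 in LPS-treated and 9.82, 10.28 and 9.93 in untreated knockout cells. Pfn1, the profilin that feeds actin monomers to formins and Ena/VASP proteins, had 0.13 (SE 0.09, limma adjusted p = 0.521). Vasp, Evl and Enah, which lengthen filaments at the leading edge, had 0.12, -0.11 and -0.09.

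Of the bundlers and crosslinkers, Flna came nearest to the threshold. Filamin A crosslinks filaments into networks and binds integrins. Its signal was 10.47, 10.70 and 10.65 in LPS-treated and 10.86, 10.81 and 10.91 in untreated knockout cells. Wildtype cells had 10.36, 10.61 and 10.58 in LPS-treated and 10.71, 10.77 and 10.80 in untreated cells. The arrays did not overlap in either genotype, and the difference over both was -0.25 (SE 0.10, limma adjusted p = 0.201, and 0.0334 with 12 arrays). Fascin (Fscn1), the bundler of mature dendritic cells, was at 11.87, 11.24 and 11.74 in LPS-treated and 11.58, 11.40 and 11.58 in untreated cells of the knockout, and at 11.75, 11.20 and 11.61 in LPS-treated and 11.40, 11.44 and 11.50 in untreated wildtype cells. Replicate 2 was the lowest Fscn1 array in both LPS groups, and the difference over both genotypes was 0.09. Lcp1, the L-plastin of leukocytes, had 0.16, the leukocyte actin-binding protein Lsp1 -0.01, and the alpha-actinins Actn1 and Actn4 0.08 and 0.05.

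**Figure D3:**
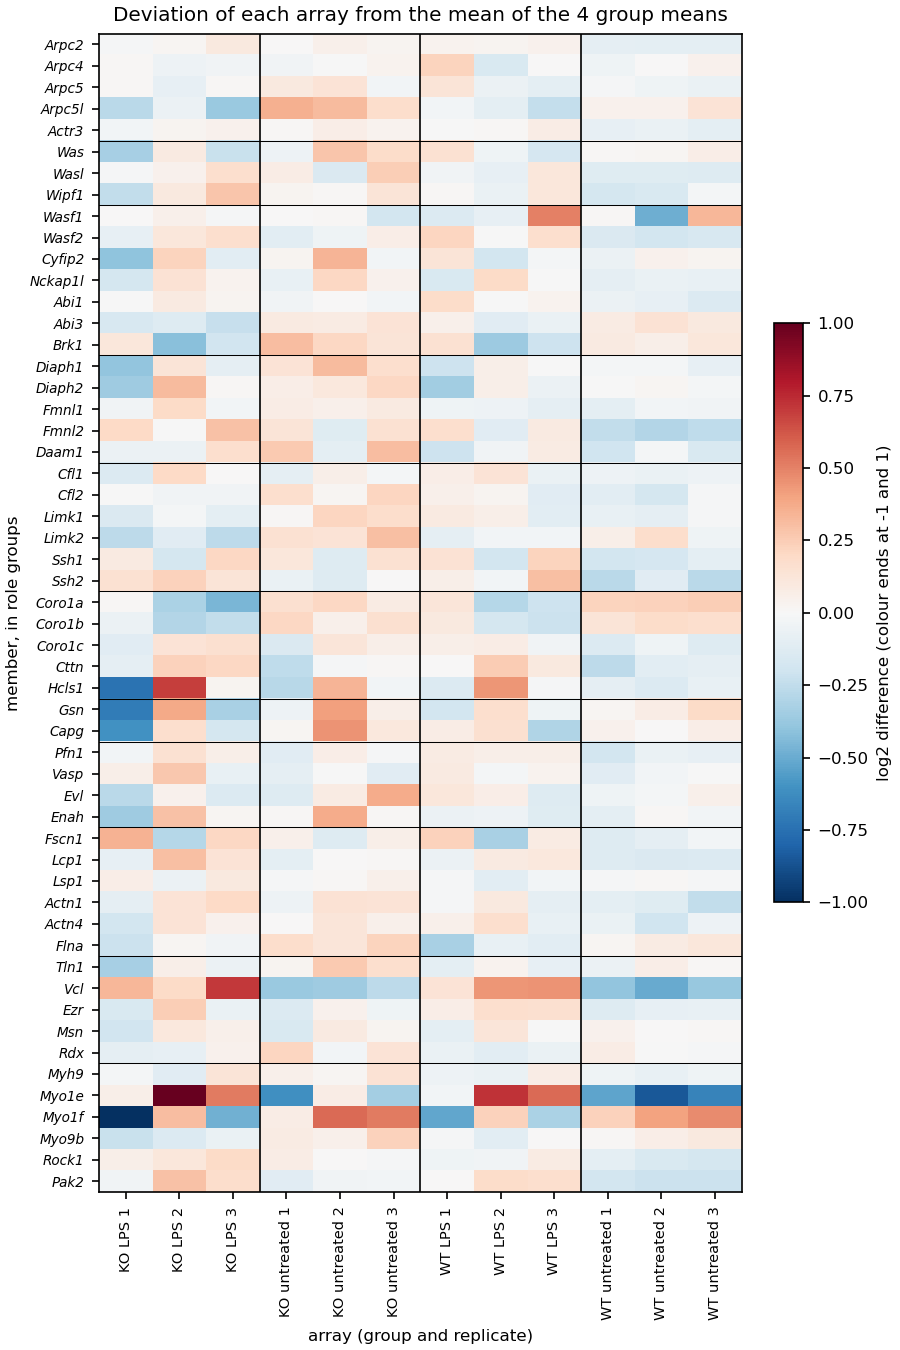
Deviation of each array from the mean of the 4 group means for the 54 members (rows, by role; columns, arrays; colour, log2 difference, ending at -1 and 1). Vcl is red in every LPS column and blue in every untreated one, as is Myo1e except for LPS-treated wildtype 1 (9.20) and untreated knockout 2 (9.29), while Myo1f, Hcls1, Gsn and Capg differ most between the LPS-treated knockout replicates.

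Replicates differed most in LPS-treated knockout cells, where the SD over 3 arrays was 0.90 for Myo1f, 0.72 for Hcls1, 0.55 for Gsn, 0.52 for Myo1e and 0.39 for Capg. The median SD of the members there was 0.16, against 0.09 in untreated knockout cells, and it was 0.11 in LPS-treated wildtype cells. Over all genes these medians were 0.17 in LPS-treated and 0.13 in untreated cells of the knockout, and 0.14 in LPS-treated wildtype cells.

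The replicate numbers link LPS-treated with untreated knockout arrays, as a result from the data, and link both with LPS-treated wildtype arrays. What a shared number stands for was not tested. With the replicate number as a block, 5 members passed after LPS in knockout cells, adding Myo1e (higher) and Myo1f (lower) to Vcl, Arpc5l and Limk2. In that fit 4.29% of genes in all rose and 6.13% fell. The Vcl adjusted p there was 0.00594 by limma.

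**Figure D4:**
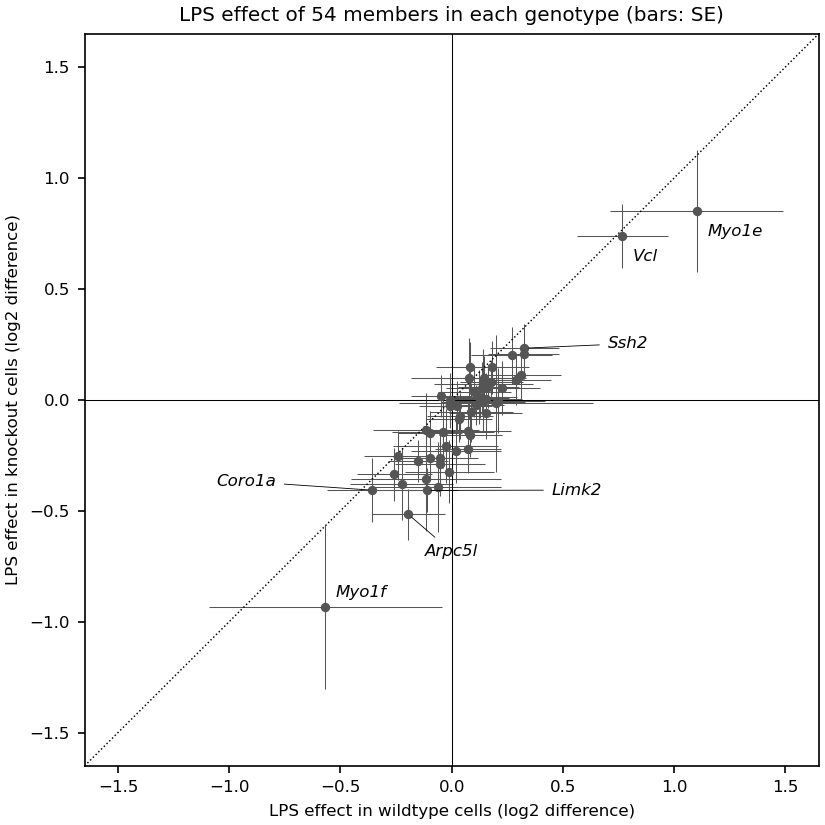
LPS difference of each of the 54 members in knockout cells (vertical axis) against wildtype cells (horizontal axis), both in log2, with bars of 1 SE and a dotted line of equality. Vcl and Myo1e are positive in both genotypes, and Arpc5l and Limk2 are further below 0 in knockout than in wildtype cells. Below the line of equality lie 50 of the 54 members.

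Whether the LPS response depends on Arc was asked by the difference of the 2 LPS differences, knockout minus wildtype. By limma 0 of 54 members and 0% of all genes passed, 0 members had an unadjusted p below 0.05, and 0 members passed with 12 arrays, beside 0.248% of genes in all. The largest gaps were -0.37 for Myo1f (SE 0.64) and -0.33 for Capg, and Vcl had -0.03 (95% interval -0.58 to 0.53). The interval lay within 1.5-fold for 25 of the 54 members and within 2-fold for 49. The median was -0.12 over the members, -0.06 over all genes and -0.15 over the 11090 brighter ones. The value was positive for 4 of the 54 members (7.41%), for 41.4% of all genes and for 19.5% of the brighter ones.

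Without Arc, the RNA of the actin machinery did not differ past the threshold. By limma 0 of 54 members passed between knockout and wildtype cells, untreated, after LPS or over both, where 0.00451%, 0.00902% and 0.0135% of all genes did, and where Arc did not pass untreated. No member had an unadjusted p below 0.05 in any of these comparisons, and 0 passed with 12 arrays, beside 0.437% of genes in all untreated, 0.00902% after LPS and 0.0271% over both. Over both treatments the differences ran from -0.16 (Myo1f) to 0.26 (Myo1e), and the 95% interval lay within 1.5-fold for 51 members and within 2-fold for all 54. Untreated, the intervals were wider, within 1.5-fold for 38 and within 2-fold for 51, and after LPS they were within 1.5-fold for 49 and within 2-fold for 53.

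**Figure D5:**
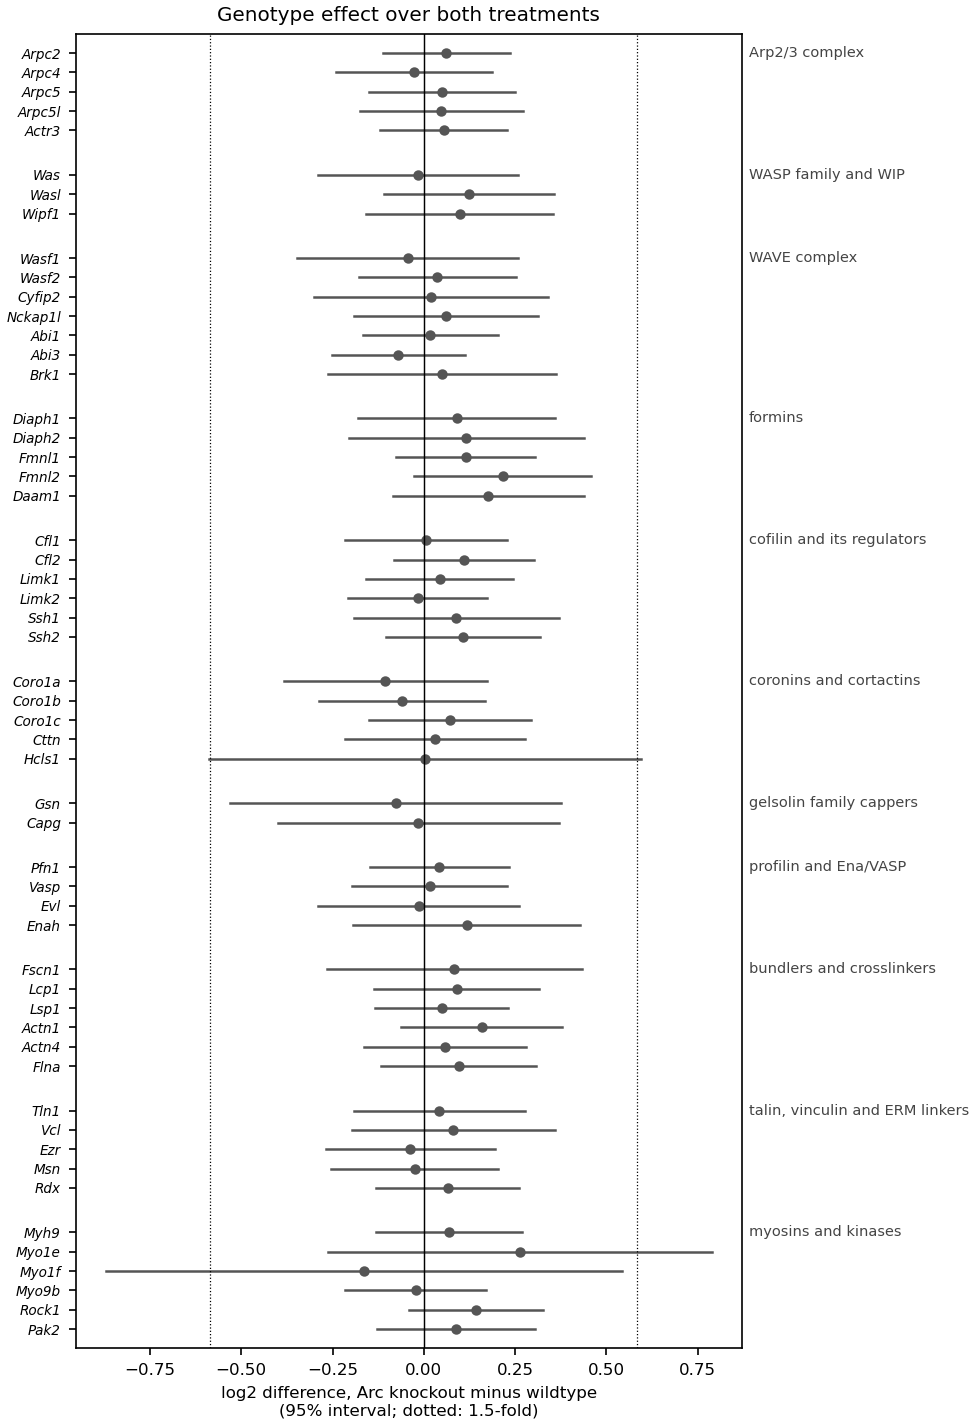
Difference between knockout and wildtype cells over both treatments for each of the 54 members (log2, knockout minus wildtype; point, estimate; bar, 95% interval; dotted lines, 1.5-fold). Every interval includes 0, and those of Hcls1, Myo1e and Myo1f reach past 1.5-fold.

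By role, the formins had the largest median genotype difference, 0.12 over both treatments, with Fmnl2 at 0.22 (SE 0.11, 95% interval -0.03 to 0.46), Daam1 at 0.18, Diaph2 at 0.12, Fmnl1 at 0.11 and Diaph1 at 0.09. Fmnl1 had its knockout arrays above its wildtype arrays within both treatments, and the share of all genes that did was not counted. Fmnl1 was at 10.46, 10.69 and 10.47 in LPS-treated knockout and 10.46, 10.45 and 10.41 in LPS-treated wildtype cells. In untreated cells it was at 10.57, 10.55 and 10.59 in the knockout and 10.40, 10.47 and 10.46 in wildtype. The gap was narrow in both treatments, and the limma adjusted p over both was 1.00.

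The other members named for their role were as close. Over both treatments the genotype difference was 0.06 for Arpc2, 0.12 for Wasl, -0.07 for Abi3, 0.11 for Cfl2 and -0.11 for Coro1a. It was -0.08 for Gsn, 0.12 for Enah, 0.16 for Actn1, 0.07 for Rdx and 0.14 for Rock1, with SEs between 0.08 and 0.21. None of these passed by limma, with adjusted p of 1.00 in each case. Vcl differed by 0.08 (95% interval -0.20 to 0.36).

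Arrays that did not overlap were frequent between untreated knockout and untreated wildtype cells, where 22 members were above and 1 (Coro1a) below, beside 17.7% and 11.6% of all genes. After LPS 1 member (Fmnl1) was above and 2 (Abi3 and Limk2) below, beside 2.81% and 4.96% of all genes. In untreated cells 47 of 54 members (87.0%) had a positive genotype difference, as did 54.3% of all genes and 78.3% of the 11090 brighter genes, with medians of 0.12, 0.02 and 0.12. The members had about the median of the brighter genes and a larger share of positive differences. How often the arrays of the brighter genes did not overlap was not counted, and the part of signal level was not tested. The untreated genotype comparison and the LPS comparison in wildtype cells share the untreated wildtype arrays, which were the tight ones.

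Other genes of the pathway were read from a second list of 78, of which 70 were measured. After LPS 3 rose and 0 fell in knockout cells, beside 2.98% and 2.93% of genes in all, and 6 rose and 0 fell over both genotypes, beside 3.94% and 2.28%. In wildtype cells limma called 0, beside 1.34% and 0.234%. With 12 arrays 6 rose and 2 fell in knockout cells (3.93% and 5.18% of genes in all), 8 rose and 0 fell in wildtype cells (5.39% and 3.26%), and 10 rose and 3 fell over both (7.1% and 7.35%). Those with the smallest p were Rnd3 and Rnd1, small GTPase-like proteins that loosen contractile fibres, Rhob, a small GTPase of endosomes, and Marcksl1, a membrane-bound actin regulator. Rnd3 was at 10.77, 10.30 and 10.89 in LPS-treated and 9.49, 9.45 and 9.48 in untreated cells of the knockout, and at 10.52, 10.36 and 10.36 in LPS-treated and 9.57, 9.53 and 9.49 in untreated wildtype cells. The arrays did not overlap in either genotype. The difference over both was 1.03 for Rnd3, 0.78 for Rhob, 0.69 for Rnd1 and 0.73 for Marcksl1, with limma adjusted p of 0.000607, 0.00207, 0.00621 and 0.0137. Between the genotypes limma called 0 of the 70 in any comparison.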

How the data were processed

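RNA of 12 dendritic cell cultures was hybridised to Affymetrix whole-transcript arrays. The values are log2 signals deposited by the authors after a background correction and normalization that the sources used here do not describe. Limma is the tool named in the submitters' processing notes. The platform annotation pairs 23521 of the 34390 probe sets with 1 gene, 1814 with several and 9055 with none, and the first kind stood for 22180 genes. No column of per-sample values was left unused.

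Differences were tested on these log2 values with limma 3.58.1 in R 4.3.3 (1 mean per group, contrasts, eBayes, two-sided, Benjamini-Hochberg adjustment over all 22180 genes, threshold 0.05). The fit had 10 samples and 6 residual degrees of freedom. The lone untreated wildtype sample is assumed to vary like the others. Its mean also hides the spread of its 3 arrays. The labels speak of biological replicates only, so p-values cover just the spread seen among these cultures, which may be technical. Precision is limited by how many arrays there are.

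The members and lists were chosen with earlier results of these data known. Named are the members past the threshold in any of 7 comparisons and, per role group, those with the smallest p for LPS over both genotypes and for genotype over both treatments. At most 4 genes of the second actin list are named per comparison. Others (Myo1f, Ssh2, Pak2, Brk1, Fscn1, Hcls1 and Fmnl1 among them) were chosen after their values were seen or complete a role group.

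Residuals of same-numbered arrays correlated at 0.381, 0.299 and 0.196 between LPS-treated and untreated knockout arrays. They correlated at 0.338, 0.358 and 0.228 between LPS-treated knockout and LPS-treated wildtype arrays, and at 0.145, 0.196 and 0.175 between untreated knockout and LPS-treated wildtype arrays. The numbers were taken as pairing the samples where all 3 exceeded 0.1, which no comparison with untreated wildtype arrays reached. Alternatives were the 12 arrays as samples, a replicate block, other normalizations, a filter on dim genes, all probe sets, the mean of a gene's probe sets, another prior, terms for or removal of the arrays that stand apart, and leaving out each array. The removals of arrays that stand apart were chosen after seeing the data. Promoter sequences and motifs used the RefSeq table of build GRCm38.p6.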

Additional observations from a re-analysis of the deposited data

How the results depend on the processing

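Of 26 other settings, 24 were planned. Leaving out 1 array at a time gave 0 to 4 members called for LPS in knockout cells (3 in the report). Of all 22180 genes, 615 to 1667 were called there. Over both genotypes 1 to 4 members were called after LPS (2 in the report), beside 1029 to 1595 genes. For LPS in wildtype cells it was 0 members, beside 184 to 452 genes, and in each genotype comparison 0 members. In knockout cells the count was 0 without untreated replicate 1, untreated replicate 2 or LPS-treated replicate 3, and 1 without untreated replicate 3. Over both genotypes it was 4 without LPS-treated knockout replicate 2. It was 1 when any of untreated knockout 1 or 3, LPS-treated knockout 3 or LPS-treated wildtype 2 or 3 was dropped. In knockout cells it was 7 with 12 arrays and the replicate block, beside 2539 of all genes. With 10 samples and the replicate block it was 5, beside 2312, and with the compared groups alone 1, beside 949. In wildtype cells it was 2 with 12 arrays, beside 1917, and 3 with 12 arrays and the replicate block, beside 2437. Without the arrays with Y-linked signal it was 1 in wildtype cells, beside 447. Over both genotypes it was 10 with 12 arrays, beside 3206, and 14 with 12 arrays and the replicate block, beside 3820. It was 1 with arrays shifted to the same median, beside 1137, and 1 with all probe sets, beside 1409 of 34390. With low small RNA signal as a term it was 1 (Myo1f), beside 954. The replicate block changed no genotype call of a member. The members' median for LPS in knockout cells was -0.13 without the arrays of low small RNA signal. Shifting arrays to 1 median moved the untreated genotype median to 0.21 and the interaction median to -0.22, which was also -0.22 without the arrays of low small RNA signal. The genotype difference of Gsn over both treatments ran from -0.23 to 0.044 over the fits without 1 array and was above 0 without LPS-treated knockout replicate 1. That of Enah was -0.064 without the arrays of low small RNA signal and -0.014 without those with Y-linked signal. Vcl over both genotypes passed in all 12 fits without 1 array (0.68 to 0.81) and Myo1e in 7. In knockout cells Vcl passed in 9, Arpc5l in 7 and Limk2 in 5. Fewer samples were fitted wherever an array was left out, except an untreated wildtype array, whose group stayed 1 sample, and the cause of the other changes was not tested.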
